A study of Mus musculus with 6 samples.

Results

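The 10 genes described here are commonly used to mark resident macrophages of mouse tissue: Csf1r, Adgre1, Cd68, Mrc1, C1qa, C1qb, C1qc, Lyve1, Cx3cr1 and Timd4. They were taken by gene symbol from a deposited table of 24532 genes, and all 10 symbols were found. Bulk RNA-seq had been performed on mouse kidney and ureter at postnatal day 1 (PN1), with 2 libraries of Ahnak KO kidney and 2 of WT kidney, and a single library of ureter for each genotype. Ahnak encodes a very large scaffold protein, and the KO mice carry a disruption of exon 5. The study took 2 to 4 kidneys or ureters for RNA, the number behind each library is not given, and no strain or sex is given for a library. Replicates were therefore treated as separate samples of a group without knowledge of the animals in them.

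Macrophages settle in the kidney and the ureter wall before birth and are kept alive by signals through the receptor encoded by Csf1r, whose ligands are CSF1 and IL-34. Resident cells clear dying cells and debris, and they are a main source of C1q, the recognition molecule of the classical complement pathway, which is built from the chains encoded by C1qa, C1qb and C1qc. Subsets differ in what they display, and high Lyve1, Timd4 and Mrc1 is a well known profile of perivascular and long-lived macrophages, while Cx3cr1 marks another share of resident cells. Some of the genes are not limited to macrophages, since lymphatic endothelium also expresses Lyve1 and Mrc1.

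The C1q genes lie side by side on chromosome 4 (GRCm38.p6, minus strand), with C1qa at chr4:136895916-136898844, C1qc at chr4:136889801-136892936 and C1qb at chr4:136880126-136886200. Their counts moved together across the libraries, so the sequence before the start of C1qb and of C1qc is shown. Promoter windows from RefSeq (GRCm38.p6, 250 bases before to 50 bases after a start) were matched for 6 of the 10 genes, namely Cd68, Mrc1, C1qb, C1qc, Cx3cr1 and Timd4. Each window was searched on both strands for GAGGAA, read as TTCCTC on the other strand, the hexamer at the core of sites known for PU.1, a transcription factor of the myeloid lineage encoded by Spi1. No other motif was searched. It was found in 4 of these 6 windows (Cd68, Mrc1, C1qb and C1qc), and 28.3% of 32851 promoter windows of 300 bases hold it, so a match is a description and not a binding site. Below, only bases upstream of the starts annotated by both RefSeq and GENCODE are printed, on the strand of the gene, and the capitals mark the hexamer.
C1qb, chr4:136886201-136886450: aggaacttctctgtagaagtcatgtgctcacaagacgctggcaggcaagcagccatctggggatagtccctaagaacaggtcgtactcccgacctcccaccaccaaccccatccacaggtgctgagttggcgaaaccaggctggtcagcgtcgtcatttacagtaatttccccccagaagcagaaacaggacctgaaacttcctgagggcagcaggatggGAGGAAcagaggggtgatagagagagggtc
C1qc, chr4:136893066-136893164: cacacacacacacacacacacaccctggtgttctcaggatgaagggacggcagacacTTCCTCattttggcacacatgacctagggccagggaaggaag
In C1qb the hexamer begins 30 bases before the RefSeq start and 43 bases before the GENCODE start. In C1qc it is on the opposite strand and begins 193 bases before the RefSeq start used for the window (chr4:136892914). That start lies inside the gene span given above. The hexamer of C1qc begins 42 bases before the GENCODE start, which lies further upstream.

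The kidney libraries held 55744703 to 66095616 counts, the Ahnak KO ureter library 36410246 and the WT ureter library 54985927. A limit of 3 counts corresponded to 0.0454 to 0.0824 CPM, here the reads of a gene relative to all reads of its library. This limit, like every interval below, covers counting error only. Every other CPM value was scaled by TMM factors over the 6 libraries. The labelled tissues were checked against their defining genes. The 10 kidney epithelium genes summed to 1772 to 2141 CPM in kidney and to 40.0 and 43.1 CPM in the ureter libraries, where Umod and Slc12a1 were at 0, and the 8 urothelium genes summed to 60.2 to 67.0 CPM in kidney and to 6959 and 7774 CPM in ureter. Ahnak was counted in every library, at 139 and 131 CPM in Ahnak KO kidneys against 184 and 190 CPM in WT kidneys, and at 631 CPM in the Ahnak KO ureter against 728 CPM in the WT ureter. Both Ahnak KO kidneys were below both WT kidneys, but the difference was not called (log2FC -0.47, SE 0.0961, edgeR adjusted p = 0.9999), so the Ahnak counts are lower in the libraries labelled KO without being absent. Ahnak KO kidney replicate 1 stood apart, with 176348 counts of Xist and 0 counts on 4 Y chromosome genes, where the other 5 libraries had 17 to 36 counts of Xist. The Ahnak KO ureter library stood apart through Rn45s, a ribosomal RNA precursor, which took 8.06% of its counts and 0.496% to 0.632% of the others. For the 10 genes, the tissue comparison was repeated without each of these libraries. The kidney and interaction tests were repeated without Ahnak KO kidney replicate 1. Genes of the lists were read only from fits in which these libraries were kept.

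The first question was how abundant each gene was within a tissue. Levels of different genes were compared as TPM, the authors' values scaled by transcript length and depth. In kidney the C1q chains had the highest levels, with a mean of 49.6 TPM for C1qb, 45.1 TPM for C1qc and 39.0 TPM for C1qa (n = 4), and their ranges over the libraries overlapped. Csf1r followed at 15.7 ± 0.850 TPM (SD, n = 4) and Cd68, a lysosomal membrane glycoprotein of phagocytes, at 11.7 ± 1.90 TPM. Mrc1, the mannose receptor, had 7.44 ± 1.37 TPM and overlapped with Lyve1, a hyaluronan receptor, at 5.32 ± 0.543 TPM. Adgre1, which encodes the F4/80 antigen, had 2.94 TPM and Cx3cr1, the receptor for the chemokine fractalkine, had 2.88 TPM, and they also overlapped. Timd4, a receptor for phosphatidylserine on dying cells, was last at 0.364 TPM, with 7 to 38 counts per kidney library.

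The order differed in ureter. The C1q chains again led, at a mean of 81.0 TPM for C1qb, 65.1 TPM for C1qa and 64.9 TPM for C1qc (n = 2), with overlapping ranges. Lyve1, the seventh in kidney, was the fourth in ureter, at 40.3 ± 2.28 TPM (SD, n = 2), and Mrc1 followed at 24.4 ± 0.107 TPM, both without overlap with the next gene. Cd68 had 13.7 TPM and overlapped with Csf1r at 12.6 TPM, the fourth in kidney and the seventh here. Adgre1 with 5.05 TPM, Cx3cr1 with 4.04 TPM and Timd4 with 0.514 TPM closed the order as they did in kidney.

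The tissues were then compared gene by gene. Values below are CPM scaled by TMM factors over the 6 libraries, given for kidney in the order Ahnak KO 1, Ahnak KO 2, WT 1 and WT 2, and for ureter with Ahnak KO before WT. Log2 fold changes (log2FC) are given with their standard error (SE). In bulk tissue, a difference in the number of macrophages and a difference in RNA per macrophage cannot be told apart. Of the 10 genes, 6 were higher in ureter at an adjusted p under 0.05 and 0 were lower (edgeR's quasi-likelihood test with Benjamini-Hochberg adjustment over 17557 genes, tissue and genotype as terms, 3 residual degrees of freedom), where 20.3% of all genes tested were higher and 22.3% were lower. The median log2 fold change of the 10 genes was 1.02, and that of all genes was -0.08. In TMM-scaled CPM both ureter libraries lay above all 4 kidney libraries in 9 of the 10 genes, as in 27.1% of all genes. In the deposited TPM they did so in 4 (Lyve1, Mrc1, Adgre1 and C1qa), as in 16.3% of all genes, while 5 overlapped and Csf1r was lower in both ureter libraries than in all kidney libraries.

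**Figure D1:**
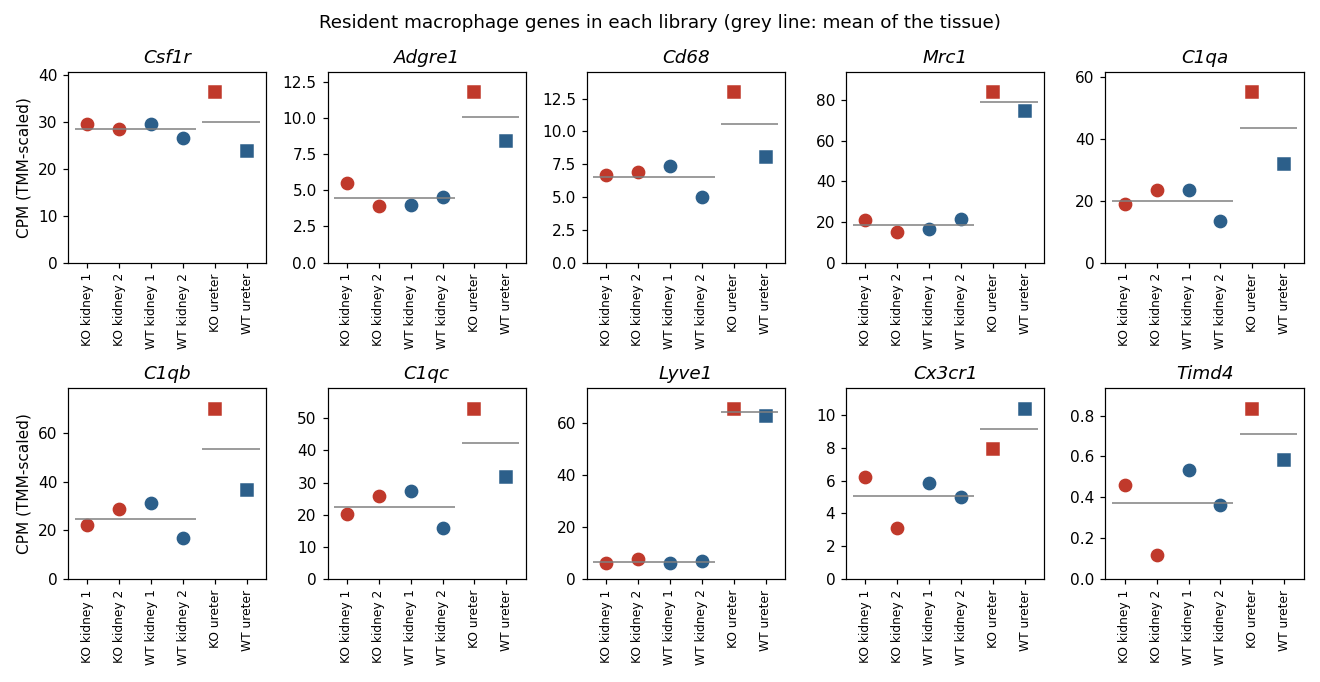
CPM (linear axis from 0) of each gene in each of the 6 libraries, with Ahnak KO in red, WT in blue, kidney as circles, ureter as squares, and a grey line at the mean of each tissue. Lyve1 and Mrc1 separate the tissues most widely, Csf1r overlaps between them on this scale, and the C1q chains and Cd68 are lowest in WT kidney 2 and highest in the Ahnak KO ureter.

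Lyve1 had the largest difference. It was counted at 5.94, 7.58, 5.89 and 6.70 CPM in the kidneys and at 65.4 and 62.6 CPM in the ureters. The kidney libraries differed by at most 1.29-fold and the ureter libraries lay close together, so that the mean rose from 6.53 ± 0.796 (SD, n = 4) to 64.0 ± 1.99 CPM (SD, n = 2) (log2FC 3.30 with SE 0.150, edgeR adjusted p = 2.28e-05). Only 4.56% of the genes tested had a higher log2 fold change.

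Mrc1, which internalizes mannosylated glycoproteins and collagen fragments, was at 21.0, 15.03, 16.8 and 21.3 CPM in the kidneys and at 84.0 and 74.7 CPM in the ureters. The tissues did not overlap, and the log2FC was 2.103 with SE 0.174 (edgeR adjusted p = 0.000207). Lyve1 and Mrc1 passed the threshold in all 16 alternative settings of the tissue comparison.

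Adgre1 had 5.49, 3.91, 3.97 and 4.56 CPM in the kidneys and 11.8 and 8.42 CPM in the ureters. Its tissues did not overlap either, with a log2FC of 1.16 and SE 0.239 (edgeR adjusted p = 0.00920). It passed in 14 of the 16 alternatives, and not without the Ahnak KO ureter library (0.98, adjusted p = 0.0718) or with only the kidney libraries that share a sample code with the ureter libraries, a fit added after the data were seen (1.24, adjusted p = 0.0523).

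The C1q chains rose by less than Lyve1 and Mrc1 and varied more within a tissue. C1qa had 18.9, 23.4, 23.4 and 13.6 CPM in the kidneys and 55.2 and 32.0 CPM in the ureters. C1qb had 22.2, 28.9, 31.4 and 16.7 CPM in the kidneys and 70.2 and 36.6 CPM in the ureters. C1qc had 20.2, 25.9, 27.4 and 16.0 CPM in the kidneys and 53.1 and 31.6 CPM in the ureters. In each chain WT kidney 2 was lowest and the Ahnak KO ureter highest. The WT ureter lay above the highest kidney library in CPM, while in TPM it lay below WT kidney 1 for C1qb (60.1 against 63.5 TPM) and C1qc (52.2 against 55.9 TPM). The log2FC was 1.10 for C1qa (SE 0.253, edgeR adjusted p = 0.0142), 1.06 for C1qb (SE 0.301, adjusted p = 0.0299) and 0.89 for C1qc (SE 0.262, adjusted p = 0.0340). These calls rested on the Ahnak KO ureter library. Without it the log2 fold changes were 0.79, 0.61 and 0.54 and the adjusted p-values 0.124, 0.259 and 0.264. The calls of C1qb and C1qc were also lost without Ahnak KO kidney 1 (0.0693 and 0.0764), without Ahnak KO kidney 2 (0.0804 and 0.0825) and without WT kidney 2 (0.0685 and 0.0775), and each passed in 9 of the 16 alternatives.

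The remaining 4 genes did not pass the threshold. Cx3cr1 had 6.22, 3.13, 5.87 and 5.01 CPM in the kidneys and 7.91 and 10.4 CPM in the ureters, a log2FC of 0.85 (SE 0.306, edgeR adjusted p = 0.0633). Cd68 had 6.70, 6.91, 7.39 and 4.99 CPM in the kidneys and 12.98 and 8.07 CPM in the ureters, a log2FC of 0.67 (SE 0.246, adjusted p = 0.0680). In CPM the ureter libraries of both genes lay above the kidney libraries without overlap, and in TPM the tissues overlapped, with the WT ureter the lower of the pair for Cd68 and the higher for Cx3cr1. The Wald test of DESeq2 called both, with adjusted p-values of 0.0418 for Cx3cr1 and 0.0451 for Cd68. Cx3cr1 passed in 4 of the 16 alternatives, among them the fit without Ahnak KO kidney 1 (adjusted p = 0.0212 in edgeR), and Cd68 in 2, the other being the fit without WT kidney 1 (0.0341). Timd4 had 0.462, 0.118, 0.535 and 0.361 CPM in the kidneys and 0.834 and 0.583 CPM in the ureters, and with so few counts its log2FC of 0.98 had an SE of 0.881 (adjusted p = 0.403). For Timd4 a difference was not detectable at this depth.

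Csf1r was the gene of the 10 whose tissues overlapped in CPM. It had 29.5, 28.5, 29.6 and 26.7 CPM in the kidneys, a range of 1.11-fold, and 36.3 and 23.7 CPM in the ureters. The Ahnak KO ureter was above and the WT ureter below every kidney library, whereas in TPM both ureters (14.4 and 10.7) lay below the kidneys (14.8 to 16.4). Its log2FC was 0.06 (SE 0.167, edgeR adjusted p = 0.809), and it was -0.22 and -0.25 with limma on FPKM, so no direction can be given.

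**Figure D2:**
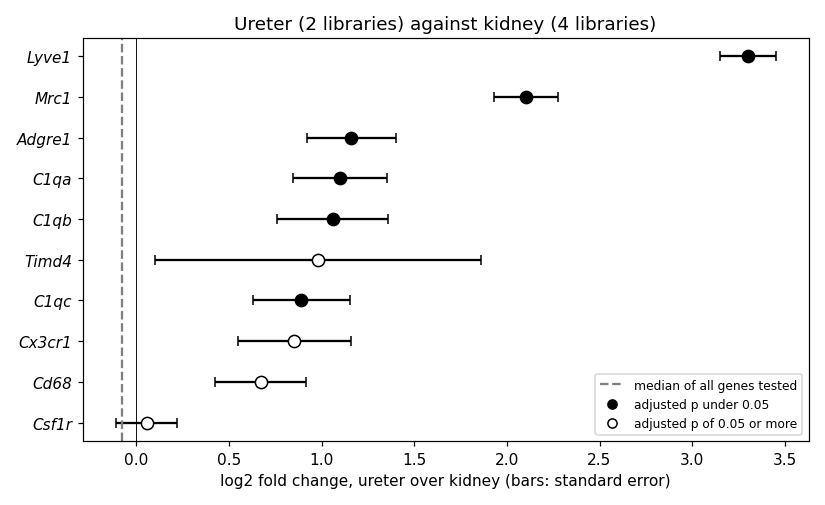
Log2 fold change of ureter (2 libraries) over kidney (4 libraries) for each gene, with bars of 1 standard error, filled points for an adjusted p under 0.05 in edgeR and a dashed line at the median of all genes tested. The points run from 0.06 for Csf1r to 3.30 for Lyve1, and 6 of 10 are filled.

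The unequal change could be read without any scaling of libraries, by dividing the counts of each gene by the counts of Csf1r in the same library. Lyve1 had 0.199 to 0.267 counts per Csf1r count in kidney and 1.80 to 2.64 in ureter. Mrc1 had 0.528 to 0.799 in kidney and 2.31 to 3.15 in ureter. C1qa had 0.510 to 0.823 in kidney and 1.35 to 1.52 in ureter, and Adgre1 0.134 to 0.186 against 0.324 to 0.355. These ratios are not per length, so they compare tissues for a gene and not the genes with each other. All 9 ratios were higher in both ureter libraries than in all 4 kidney libraries. Each gave p = 0.133 in a two-sided exact permutation test that doubles the one-sided p. That is the smallest p this test can give for 4 against 2 libraries, and it is the same after Benjamini-Hochberg adjustment over the 9. The 9 ratios share their denominator, so they are not independent of each other. Csf1r also had the lowest log2FC of ureter over kidney among the genes described here (0.06 in edgeR). A higher mean level relative to Csf1r in ureter therefore follows from the choice of denominator. The ratios restate the unequal change and are not separate evidence of a rise in ureter. The share of all genes whose ratio to Csf1r separates the tissues in this way was not computed.

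**Figure D3:**
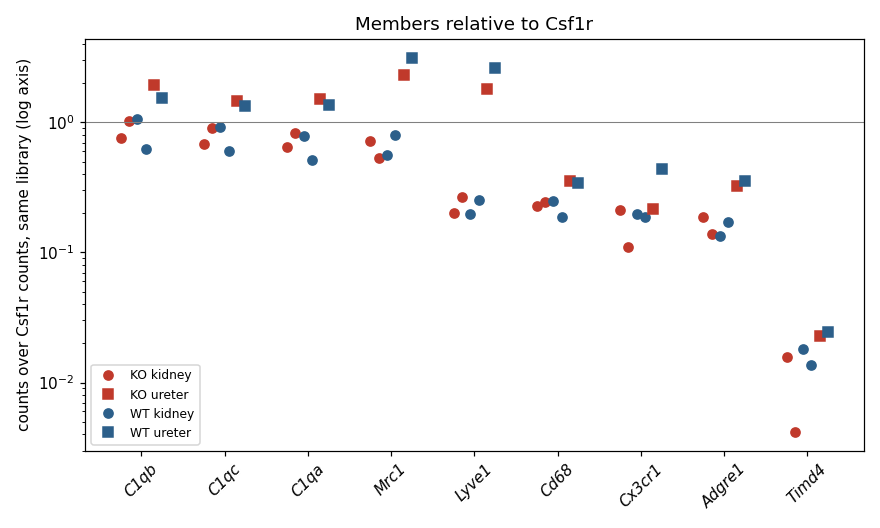
Counts of each gene divided by the counts of Csf1r in the same library, on a log axis, with Ahnak KO in red, WT in blue, kidney as circles and ureter as squares. The squares lie above the circles for all 9 genes, most widely for Lyve1 and Mrc1 and least for Cx3cr1, whose Ahnak KO ureter value of 0.218 is close to the highest kidney value of 0.211.

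The C1q chains kept similar proportions while their sum varied. Their summed level ran from 46.3 CPM in WT kidney 2 to 82.2 CPM in WT kidney 1, a 1.78-fold range within kidney, and was 100 CPM in the WT ureter and 178 CPM in the Ahnak KO ureter. Over the 6 libraries C1qa held 28.5% to 31.9% of the C1q counts, C1qb 36.1% to 39.3% and C1qc 29.7% to 34.5%, and per length, in TPM, the shares were 28.0% to 31.5%, 36.2% to 39.5% and 30.1% to 34.9%. In the Ahnak KO ureter the share of C1qb was 39.3% (95% Clopper-Pearson interval 38.0% to 40.7%) and that of C1qc was 29.7% (28.5% to 31.0%), while in WT kidney 2 they were 36.1% (34.3% to 37.9%) and 34.5% (32.8% to 36.3%). The shares of these libraries therefore differed by more than counting error, although by a few percentage points.

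**Figure D4:**
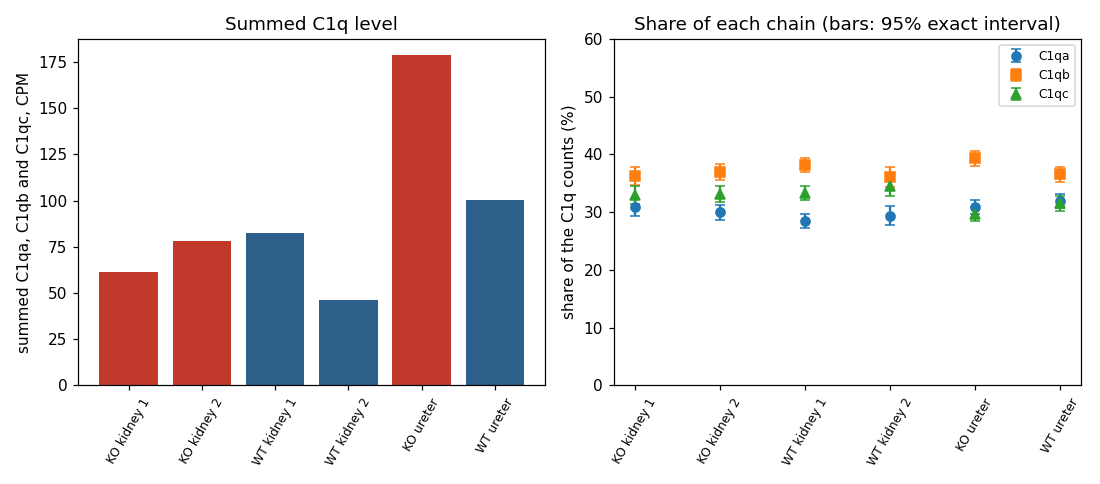
Left, summed CPM of C1qa, C1qb and C1qc in each library (bars from 0, Ahnak KO in red, WT in blue), from 46.3 in WT kidney 2 to 178 in the Ahnak KO ureter. Right, the share of each chain in the C1q counts (%), with 95% exact binomial intervals, which stays between 28.5% and 39.3% for every chain and library.

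The second question was whether the genes differed between Ahnak KO and WT kidneys. In edgeR's quasi-likelihood test (2 against 2 libraries, 16481 genes), 0 of these 10 genes reached an adjusted p under 0.05 and 0 reached an unadjusted p under 0.05, where 0.0121% and 1.38% of all genes did. DESeq2 also called 0 of the 10, with 19 lower and 25 higher among all genes. Limma called 0 of all genes, so its result says nothing about the 10. The genotypes overlapped in all 10 genes, while 26.1% of all genes did not overlap. The adjusted p from edgeR was 0.9999 for each of the 10, and the median log2 fold change was 0.09.

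The libraries of a genotype differed as much from each other as from the other genotype. C1qb had a log2FC of 0.09 (SE 0.307), with 25.6 ± 4.76 CPM in Ahnak KO kidneys and 24.0 ± 10.4 CPM in WT kidneys (SD, n = 2 each). C1qa had the largest positive value of the 10, 0.20 (SE 0.277), and WT kidney 2 was the lowest library for C1qa, C1qb, C1qc, Cd68 and Csf1r. Ahnak KO kidney 2 was the lowest library for Adgre1, Mrc1, Cx3cr1 and Timd4. Timd4 had the largest negative value, -0.62 (SE 0.912), from 28 and 7 counts in Ahnak KO against 38 and 22 in WT kidneys. Csf1r varied least, with 29.0 ± 0.722 CPM in Ahnak KO and 28.1 ± 2.08 CPM in WT kidneys (SD, n = 2 each) and a log2FC of 0.045 (SE 0.134). Without Ahnak KO kidney 1, the library that stood apart by Xist, the median log2 fold change of the 10 genes was 0.09 and 0 of them passed. Without WT kidney 2 the median was -0.13.

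In ureter each genotype had 1 library, so the comparison describes 2 libraries and has no test. Of the 10 genes, 0 differed by more than 2-fold, as 11.1% of 16117 genes did. Ahnak KO was higher in 9 genes and lower in Cx3cr1, where 47.6% of all genes were higher. The median log2 ratio of the 10 genes was 0.53 and that of all genes was -0.03. Markers of other cells differed between the same libraries. All 8 fibroblast genes (median log2 ratio 0.33), 6 of 7 genes of dendritic cells and MHC class II (0.79), 6 of 7 mast cell genes (0.33) and 5 of 8 pan leukocyte genes (0.15) were higher in Ahnak KO. Of 10 neutrophil genes 8 were lower by more than 2-fold (median -1.99), and the medians were -1.10 for 7 erythroid genes and -0.32 for 6 lymphatic genes. Their part in the ratios of the 10 genes was not tested.

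The C1q chains had the highest ratios, with a log2 ratio of 0.93 for C1qb (70.2 against 36.6 CPM, 95% exact counting interval 0.85 to 1.03), 0.78 for C1qa and 0.74 for C1qc. Cd68 followed at 0.65, Csf1r at 0.60 (36.3 against 23.7 CPM, interval 0.50 to 0.73) and Adgre1 at 0.46. Mrc1 at 0.17 and Lyve1 at 0.06 (interval -0.02 to 0.15) were close to even between the ureter libraries. Cx3cr1 went the other way, with 7.91 against 10.4 CPM and a log2 ratio of -0.38. For Timd4, with 25 and 30 counts, the interval of -0.31 to 1.33 gave no direction.

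These ratios depended on the scaling. Leaving out Rn45s before scaling kept 9 higher and 1 lower, with a median of 0.53. With library size alone the median of all genes was -0.20, that of the 10 genes was 0.35, and 7 were higher and 3 lower. FPKM and TPM also gave 7 higher and 3 lower. The order of the genes is not touched by a common factor, and the C1q chains, Cd68 and Csf1r stood above Lyve1 and Mrc1 by more than their counting intervals.

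**Figure D5:**
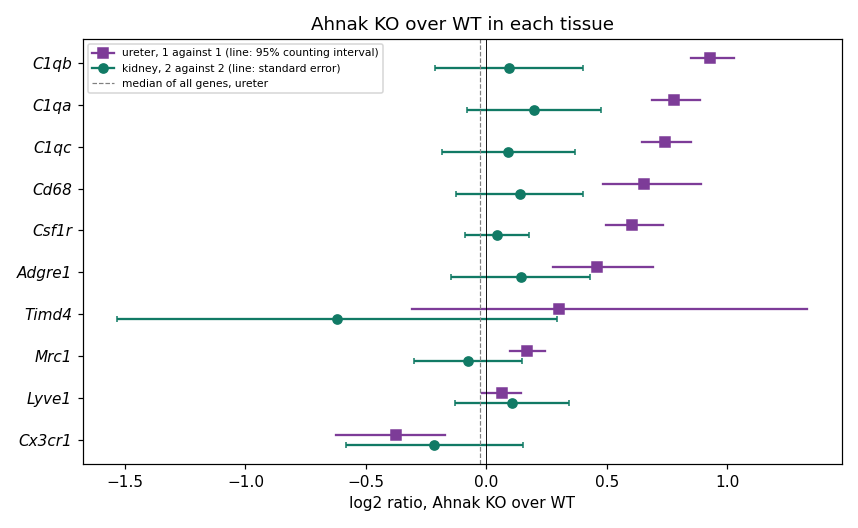
Log2 ratio of Ahnak KO over WT for each gene, in ureter as squares (1 against 1 library, line: 95% exact counting interval, which leaves out variation between animals) and in kidney as circles (2 against 2, line: standard error). In kidney the values run from -0.62 to 0.20 around 0, and in ureter from -0.38 for Cx3cr1 to 0.93 for C1qb.

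Whether the Ahnak KO over WT ratio differed between the tissues was tested with an interaction term, in which the ureter libraries were assumed to vary like the kidney libraries. In edgeR 0 of these 10 genes reached an adjusted and 0 an unadjusted p under 0.05, where 0.108% and 12.4% of 17557 genes did. DESeq2 called 0 of the 10, with 268 lower and 194 higher among all genes. Limma called 0 of all genes, so its result says nothing about the 10. The value nearest to the threshold was that of Csf1r, a difference in log2 ratio of 0.58 (SE 0.239, edgeR unadjusted p = 0.0524 and adjusted p = 0.409). The largest among the C1q chains was 0.86 for C1qb (SE 0.538, adjusted p = 0.589), and it was 0.34 without WT kidney 1 and 1.25 without WT kidney 2. In the fit without WT kidney 2 the chains C1qa, C1qb and C1qc had an unadjusted p under 0.05 (0.0320, 0.0144 and 0.0296 in edgeR) and adjusted p-values of 0.443, 0.370 and 0.439. Lyve1 was at -0.03 (SE 0.307).

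Genes around these 10 were read from lists of pathway partners and cell type markers. Counts below are read against the 20.3% of all genes that were higher and the 22.3% that were lower in ureter, and several lists lie near those shares. Among ligands and adaptors of the CSF1 receptor, 3 of 7 rose in ureter and 2 fell. The ligands went in opposite directions, with Csf1 at 15.9 ± 1.56 CPM in kidney (SD, n = 4) and 37.7 and 30.5 CPM in the ureters (log2FC 1.10, edgeR adjusted p = 0.00207), and Il34 at 3.04 ± 0.389 CPM in kidney and 0.801 and 0.953 CPM in the ureters (-1.79, adjusted p = 0.0103). Tyrobp, an adaptor of myeloid receptors, rose by 1.65. Cx3cl1, the ligand of the receptor encoded by Cx3cr1, fell by 0.80 on the log2 scale (edgeR adjusted p = 0.00643), and among 14 tested genes of the chemokine and inflammatory list 2 rose, Ccl2 and Ccl4, and 1 fell.

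Of 13 tested complement partners and regulators, 3 rose and 3 fell. C3, the central complement component, was at 3.48 ± 0.661 CPM in kidney and 18.9 and 7.20 CPM in the ureters (1.80, edgeR adjusted p = 0.00850), while Cfb, a protease component of the alternative pathway, fell by 1.43. C1s1, a protease that joins C1q, was at 0.02 (adjusted p = 0.881). Of 10 macrophage transcription factors 5 rose and 1 fell, with Spi1 at 1.42, Runx1 at 3.06 and Cebpa at 2.54. Of 18 tested phagocytosis and scavenger receptors 7 rose and 0 fell, among them Cd163 at 1.97, the fatty acid receptor Cd36 at 3.20 and Fcer1g at 1.47.

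Of 15 other macrophage markers 9 rose, led by Cd14 at 2.71 and Pf4 at 2.37, and 2 fell, one of them Sall1 at -8.07, a gene of nephron progenitors as well as of microglia. Of 14 lysosome genes 7 rose and 1 fell, Lgmn. The medians were 1.49 for the other macrophage markers, 0.90 for the phagocytosis list, 0.87 for the transcription factors, 0.86 for the complement list, 0.40 for the lysosome genes, 0.03 for the CSF1 receptor list and -0.14 for the chemokine list, against -0.08 for all genes. Many of these genes are also expressed outside macrophages.

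Markers of other cells moved with the tissue as well, and their part in the differences of the 10 genes was not tested. Of 8 pan leukocyte genes 5 rose, such as Lcp1 at 1.48 and Laptm5 at 1.25, and their summed level was 95.3 to 134 CPM in kidney and 225 CPM in both ureter libraries. The gene that fell was Ptprc, the common leukocyte antigen, at -0.84 (edgeR adjusted p = 0.0410), named after its value was seen. It had 17.6 and 20.3 CPM in Ahnak KO kidneys, 7.75 and 9.51 CPM in WT kidneys, and 7.58 and 6.48 CPM in the Ahnak KO and WT ureters. The kidney genotypes did not overlap for Ptprc (log2FC 1.14, SE 0.194, edgeR adjusted p = 0.618), and the WT kidneys were close to the ureters. Of 7 genes of lymphatic endothelium, which share expression of Lyve1 and Mrc1, 2 rose (Mmrn1 at 3.21 and Pdpn at 1.08) and 3 fell (such as Itga9 at -1.03). Their summed level was 261 to 296 CPM in kidney and 202 and 209 CPM in ureter, and Prox1, the transcription factor that defines these cells, also named after its value was seen, had 1.13 to 2.11 CPM in kidney and 0.467 and 3.03 CPM in the Ahnak KO and WT ureters (-0.29, adjusted p = 0.721). Ccl21a, another lymphatic marker, had at most 0.355 CPM in any library. The summed level of the lymphatic list therefore came mostly from its other genes. Whether their counts came from lymphatic cells was not tested. Of 8 monocyte genes 3 rose, including F13a1 at 3.07, which resident macrophages also express, and Ccr2 at 1.65, and 1 fell, Vcan. Of 9 tested genes of dendritic cells and MHC class II 1 rose and 4 fell, with H2-Ab1 at -1.88, and of 6 tested B and T lymphocyte genes 0 rose and 2 fell. All 8 smooth muscle genes, all 8 fibroblast genes and all 8 urothelium genes rose, all 10 kidney epithelium genes fell, and of 8 blood endothelium genes 2 rose and 2 fell.

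The 10 genes were also compared with each other across the 6 libraries, on log2(CPM + 0.5). The libraries fall into kidney and ureter, so an r mixes the difference between tissues with that within them and is only a description (n = 6 libraries). Pearson's r was 0.9996 for C1qb with C1qc, 0.994 for C1qa with C1qb, 0.986 for Cd68 with C1qb and 0.976 for Mrc1 with Lyve1. Csf1r with Lyve1 had 0.11. Against the mean z score of the 10 genes, which includes the gene itself, r was 0.948 for C1qa and for Cd68 and 0.495 for Csf1r. Among 14578 other genes with a mean of at least 1 CPM, 21 had an r over 0.99 with that score, led by Heg1 (0.997), Map4 (0.995), Nckap1 (0.995), Abhd2 (0.994) and C3 (0.994). Heg1, a membrane protein of endothelium, was at 19.3 to 26.7 CPM in kidney, 66.6 CPM in the Ahnak KO ureter and 38.7 CPM in the WT ureter.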

How the data were processed

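RNA-seq of PN1 kidney and ureter was analysed in 6 libraries. The authors deposited whole-number estimated counts (unit: estimated count), FPKM and TPM per gene. The methods name Cutadapt, STAR and Cufflinks, whereas the submitters' processing notes list Trimmomatic 0.38, HISAT2 2.1.0, StringTie 1.3.4b and mm10, so the origin of the counts is uncertain. Tissue was taken from the source label, since the ureter samples are titled as kidney.

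The quasi-likelihood test of edgeR 4.0.16 was run in R 4.3.3 with TMM factors, filterByExpr and Benjamini-Hochberg adjustment, on estimated rather than the read counts it was planned for. Standard errors are the absolute log2 fold change over the square root of F. Ureter ratios used CPM + 0.5. Code was tested on simulated data. Alternatives used DESeq2 1.42.0, limma 3.58.1 on log2(FPKM + 1) or (FPKM + 0.1), other filters and scalings, and leaving out libraries. Named genes were all members, Ahnak, from each of 22 lists up to 4 genes of smallest adjusted p and the 3 of highest TPM, and the 5 most like the member score. Members and lists were chosen with earlier results of these data known. Exact tests used Python 3.11.15 with scipy 1.17.1. Raw reads were not remapped. Some list genes that the naming rule picked are not reported here.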

Additional observations from a re-analysis of the deposited data

How the results depend on the processing

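In kidney and for the interaction, 0 of the 10 genes were called under every alternative run. Both ureter libraries lay above all kidney libraries in 9 genes in CPM and in 4 in TPM, an alternative added after seeing the data. The tissue count ran from 4 to 7 when each kidney library was left out in turn. In those fits 2758 of 17457 to 3270 of 17461 genes were higher. It was 8 with DESeq2 (4025 of 17557 genes higher) and 4 with limma on log2(FPKM + 1) or (FPKM + 0.1) (2513 and 2478 higher). It was 6 with the kidney libraries that share a code with the ureter libraries (2510 of 17269 higher), an alternative chosen after seeing the data. The calls of the C1q chains rested on the Ahnak KO ureter, as given above. For Adgre1 the log2FC was 1.16 with all libraries and 0.98 both without that library and with WT libraries only. Without the Ahnak KO ureter the median log2FC of the 10 genes was 0.70, against 1.02 with all libraries and -0.07 for all genes. With WT libraries only it was 0.69. Over all genes, 3562 were higher and 3912 lower in edgeR, against 2513 and 6299 with limma on log2(FPKM + 1), whose median over all genes was -0.22. In kidney, DESeq2 called 19 lower and 25 higher genes and limma 0, against 2 lower in edgeR. For the interaction, DESeq2 called 268 lower and 194 higher genes and limma 0, against 10 and 9 in edgeR. Directions of uncalled genes turned in some fits, and beyond the samples left out the cause was not tested. With each library left out in turn, the kidney log2FC ran from -0.029 (without WT kidney 2) to 0.12 for Csf1r, -0.13 (without Ahnak KO kidney 1) to 0.37 for Adgre1, -0.12 (without WT kidney 2) to 0.45 for Cd68, -0.34 to 0.15 (without Ahnak KO kidney 2) for Mrc1, -0.14, -0.29 and -0.25 (without WT kidney 2) to 0.64, 0.61 and 0.53 (without WT kidney 1) for C1qa, C1qb and C1qc, -0.082 (without Ahnak KO kidney 2) to 0.27 for Lyve1, -0.80 to 0.19 for Cx3cr1 and -1.90 to 0.042 for Timd4 (both lowest without Ahnak KO kidney 1 and highest without Ahnak KO kidney 2). Between tissues Csf1r ran from -0.24 (without the Ahnak KO ureter) to 0.34 (without the WT ureter), and was at -0.22 and -0.25 with limma (pseudocounts 1 and 0.1) and -0.25 with WT libraries only. The interaction ran from -0.19 to 0.16 for Lyve1, -0.58 to 0.42 for Cx3cr1, and 0.16 to 0.95, 0.34 to 1.25 and 0.24 to 1.01 for C1qa, C1qb and C1qc (lowest without WT kidney 1, highest without WT kidney 2).

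The replicate block in kidney called 0 of 10 members and 0 of all genes. Same-numbered libraries deviated in opposite directions (r = -0.19). With 2 libraries per genotype the crossed pairs must give the same r with the sign reversed (0.19). This r therefore cannot show whether the numbers carry a pairing, and they were used only as names. The crossed pairing, added after seeing the data, called 0 members and 1 gene over all genes. With 1 library per genotype in ureter, no variation between animals is measured there.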

Other observations

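Of 7 mast cell genes 5 rose in ureter and 2 fell in edgeR, with Cpa3 at 0.858 ± 0.325 CPM in kidney (SD, n = 4) and 154 and 70.7 CPM in the Ahnak KO and WT ureters (log2 fold change 7.01, against 3.30 for Lyve1) and Cma1, a mast cell chymase, at 6.67. Hdc fell by 2.92 on the log2 scale. Of 10 neutrophil genes 4 rose. Ngp was at 22.9 CPM in the WT ureter, 1.74 CPM in the Ahnak KO ureter and 1.34 ± 0.461 CPM in kidney, and Elane was counted only in the WT ureter, at 3.42 CPM. In the ureters the neutrophil genes S100a8 and S100a9 were higher in WT (39.6 against 15.8 CPM and 58.5 against 23.9 CPM), while C1qa was higher in Ahnak KO (55.2 against 32.0 CPM). With 1 library per genotype these differences were not tested.

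Of 7 tested adipose genes 2 rose, Adipoq and Pparg, and of 5 tested genes of the adrenal cortex 1 rose and 2 fell. Among 7 erythroid genes 1 rose and 1 fell. The near-identical globin copies differed in opposite directions between the ureters. Hba-a2 was at 0.267 CPM and Hba-a1 at 479 CPM in the Ahnak KO ureter, against 527 and 87.9 CPM in the WT ureter. How reads were assigned to these copies was not tested.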
